A study of Irpex lacteus with 14 samples.

Results

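A group of 41 genes of Irpex lacteus had higher transcript levels on every solid growth substrate than on maltose, out of 967 genes kept from the deposited table (4.24%). The members were chosen on their deposited values by a rule with 2 parts. The lowest of the 4 levels on wheat straw, cellulose, pine and aspen had to lie at least 1 above the level on maltose on the log2 scale, which is 2-fold. The lead, defined as the lower of the straw and cellulose levels minus the highest of the pine, aspen and maltose levels, had to be under 0.5. The study grew this white-rot fungus of the order Polyporales, strain CCBAS Fr. 238 617/93, to see how wood-decaying basidiomycetes adapt their transcriptome to their substrates. Mycelium was harvested after 3 days of shaken culture at 30 °C in 100 ml of medium, and polyadenylated RNA was sequenced from 14 libraries. The straw medium (3 libraries) held 15 g per litre of straw fragments under 2 mm with 2.5 g per litre of maltose, and the cellulose medium (3 libraries) held the same amounts of Avicel, a microcrystalline cellulose, and maltose. The pine medium (2 libraries) held 15 g per litre of softwood fragments under 2 mm and 2.5 g per litre of maltose. The aspen medium (3 libraries) held 15 g per litre of hardwood milled to 1 mm, with a maltose amount that cannot be read in the label. The maltose medium (3 libraries) held 20 g per litre of maltose and no solid. All media shared the same salts, diammonium tartrate as nitrogen source, thiamin and yeast extract. The presence of a solid and the smaller amount of free maltose therefore cannot be told apart for straw, cellulose and pine. For aspen this cannot be judged without the maltose amount.

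White-rot fungi live on wood and plant litter by secreting enzymes that cut cellulose and hemicellulose and that oxidise lignin. In filamentous fungi, many genes for such enzymes are kept low while an easily used sugar is plentiful, a control known as carbon catabolite repression, and are switched on by small sugars released from the polymer. The genes in the table carry ID numbers of the MycoCosm portal and are used here without names or functions, so nothing is said of which proteins the 41 genes encode.

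Each gene had a single deposited value per substrate, a normalized read count on the log2 scale that stands for all libraries of that substrate. The spread between libraries is not part of these values, so every difference below is a size with no test, no error and no p-value, and the depth behind it is unknown. Levels are read counts not divided by gene length, so they are compared within a gene and not between genes. Over all 967 genes the median difference from maltose was 0.09 on straw, 0.03 on cellulose, 0.43 on pine and 0.10 on aspen on the log2 scale, and the members' differences are to be read against these shifts. Normalized read counts are relative to the other genes of the same culture. Neither the amount of RNA per cell nor the amount of living mycelium can be read from them.

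The 41 genes stood above the maltose level on all solids, as the rule required of them. Their median log2 difference from maltose was 3.80 on wheat straw (range 1.09 to 9.46), 2.38 on cellulose (1.03 to 6.72), 3.19 on pine (1.37 to 8.75) and 3.05 on aspen (1.25 to 7.95). All 41 members were past 2-fold in each comparison by the rule itself, where 24.5% of the 967 genes were higher by that much on straw, 12.5% on cellulose, 32.2% on pine and 21.0% on aspen. The 4 comparisons share the maltose value of each gene. Differences of at least 2 on the log2 scale, or 4-fold, were held by 35 members on straw, 25 on cellulose, 36 on pine and 32 on aspen, where 13.8% of all genes reached them on straw, 5.69% on cellulose, 13.9% on pine and 9.20% on aspen. On cellulose the fewest members reached 4-fold. In all, 17 members were at least 4-fold above maltose on every solid, among 33 such genes (3.41%) before the limit on the lead was applied. Under other scalings of the substrates the rule returned fewer genes: 25 of the 41 with centring on the median, 30 with quantile normalization, and 39 with each solid shifted by its median difference from maltose. Gene 1478032 was lost in all 3 of these scalings because its lead passed the limit, although its smallest log2 difference from maltose stayed at 5.39 or more.

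**Figure D1:**
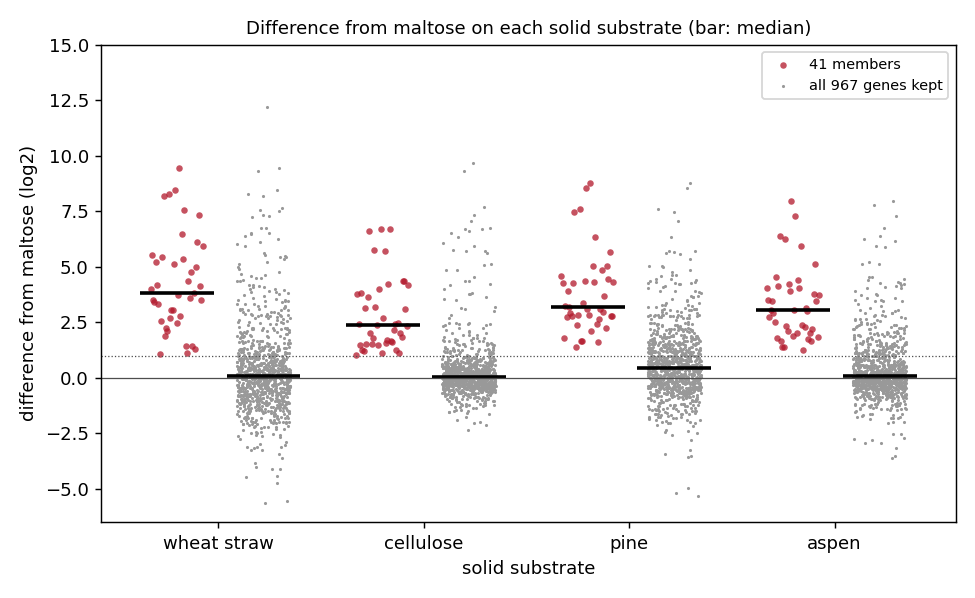
The plot shows the difference from maltose (log2, vertical axis) on each solid substrate, with 1 point per gene for the 41 members (red, left) and for all 967 genes kept (grey, right), a black bar at each median, and a dotted line at 2-fold. The members' medians lie at 3.80 on straw, 2.38 on cellulose, 3.19 on pine and 3.05 on aspen, while the medians of all genes lie between 0.03 and 0.43.

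The largest separation from maltose belonged to gene 1597012. Its log2 levels were 10.97 on wheat straw, 9.24 on cellulose, 11.05 on pine and 10.47 on aspen, against 2.52 on maltose. Cellulose gave its lowest level among the solids, and even this was 105-fold above maltose, a log2 difference of 6.72, which came to 5.48 when 8 was added to the linear values to damp low counts. Gene 1582264 had log2 levels of 14.48 on wheat straw, 12.92 on cellulose, 13.79 on pine and 12.69 on aspen, against 6.31 on maltose. Its smallest log2 difference from maltose was 6.38, or 83.4-fold, and it came first among the members with 8 added, at 6.25. In gene 1478032 the log2 levels were 13.60 on wheat straw, 12.76 on cellulose, 12.38 on pine and 11.96 on aspen, against 6.04 on maltose, and its smallest difference was 60.4-fold. Gene 1578898, with a smallest difference of 54.2-fold, had 12.72 on wheat straw, 10.22 on cellulose, 12.05 on pine and 10.71 on aspen, against 4.46 on maltose (log2). These 4 genes shared a low to moderate level on maltose and levels above 9 on every solid.

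Gene 1517890 was near the floor on maltose: its log2 levels were 10.18 on wheat straw, 6.43 on cellulose, 9.47 on pine and 8.01 on aspen, against 0.72 on maltose. Its smallest log2 difference of 5.71, on cellulose, was 3.28 with 8 added, so its place in the order depends on how values near the floor are treated. Straw gave gene 1162429 a level well apart from the other solids, with log2 levels of 12.28 on wheat straw, 9.32 on cellulose, 10.62 on pine and 10.08 on aspen, against 4.96 on maltose. The next members were more even over the solids. Gene 1278024 had log2 levels of 11.92 on wheat straw, 10.82 on cellulose, 10.90 on pine and 10.61 on aspen, against 6.58 on maltose. Gene 1519945 had log2 levels of 11.25 on wheat straw, 10.12 on cellulose, 10.49 on pine and 10.02 on aspen, against 6.13 on maltose. In both, straw was higher and the other 3 solids lay within 0.5 of each other on the log2 scale, with smallest differences from maltose of 16.4-fold and 14.9-fold.

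The other 9 members past 4-fold on every solid, not all of which the naming rule covers, all had their highest level on straw. Gene 1725889 had log2 levels of 12.35 on wheat straw, 10.59 on cellulose, 10.65 on pine and 10.01 on aspen, against 6.22 on maltose. A similar profile was seen in gene 1685815, with 13.22 on wheat straw, 11.48 on cellulose, 11.63 on pine and 11.03 on aspen, against 7.31 on maltose. Gene 1287249 had 13.24 on wheat straw, 11.44 on cellulose, 12.07 on pine and 11.94 on aspen, against 7.81 on maltose. Each of these 3 was more than 10-fold above maltose on all solids, and the pine, aspen and cellulose levels lay close together under the straw level. Gene 1292984 was low throughout, with log2 levels of 6.37 on wheat straw, 4.62 on cellulose, 5.10 on pine and 4.34 on aspen, against 0.85 on maltose. Its smallest log2 difference of 3.49 came to 1.53 with 8 added, which leaves it under 4-fold. Gene 1277953 showed the widest gap between straw and cellulose of these 9, at 12.73 on wheat straw, 10.54 on cellulose, 11.02 on pine and 10.68 on aspen, against 8.37 on maltose (log2).

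In 3 members past 4-fold, pine gave a lower level than aspen by over 0.2 on the log2 scale. Gene 1295459 had log2 levels of 9.51 on wheat straw, 8.48 on cellulose, 8.15 on pine and 8.84 on aspen, against 5.39 on maltose. Gene 916091 had 11.10 on wheat straw, 9.73 on cellulose, 8.64 on pine and 9.33 on aspen, against 5.89 on maltose. Gene 1278523 had 9.99 on wheat straw, 8.97 on cellulose, 9.11 on pine and 9.33 on aspen, against 6.28 on maltose. In genes 1295459 and 916091, pine was also the lowest of the solids, and in 1278523 cellulose was. Gene 1442558 completed these 9 genes with almost equal levels on the woods: its log2 levels were 11.57 on wheat straw, 10.38 on cellulose, 11.03 on pine and 11.08 on aspen, against 7.96 on maltose.

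**Figure D2:**
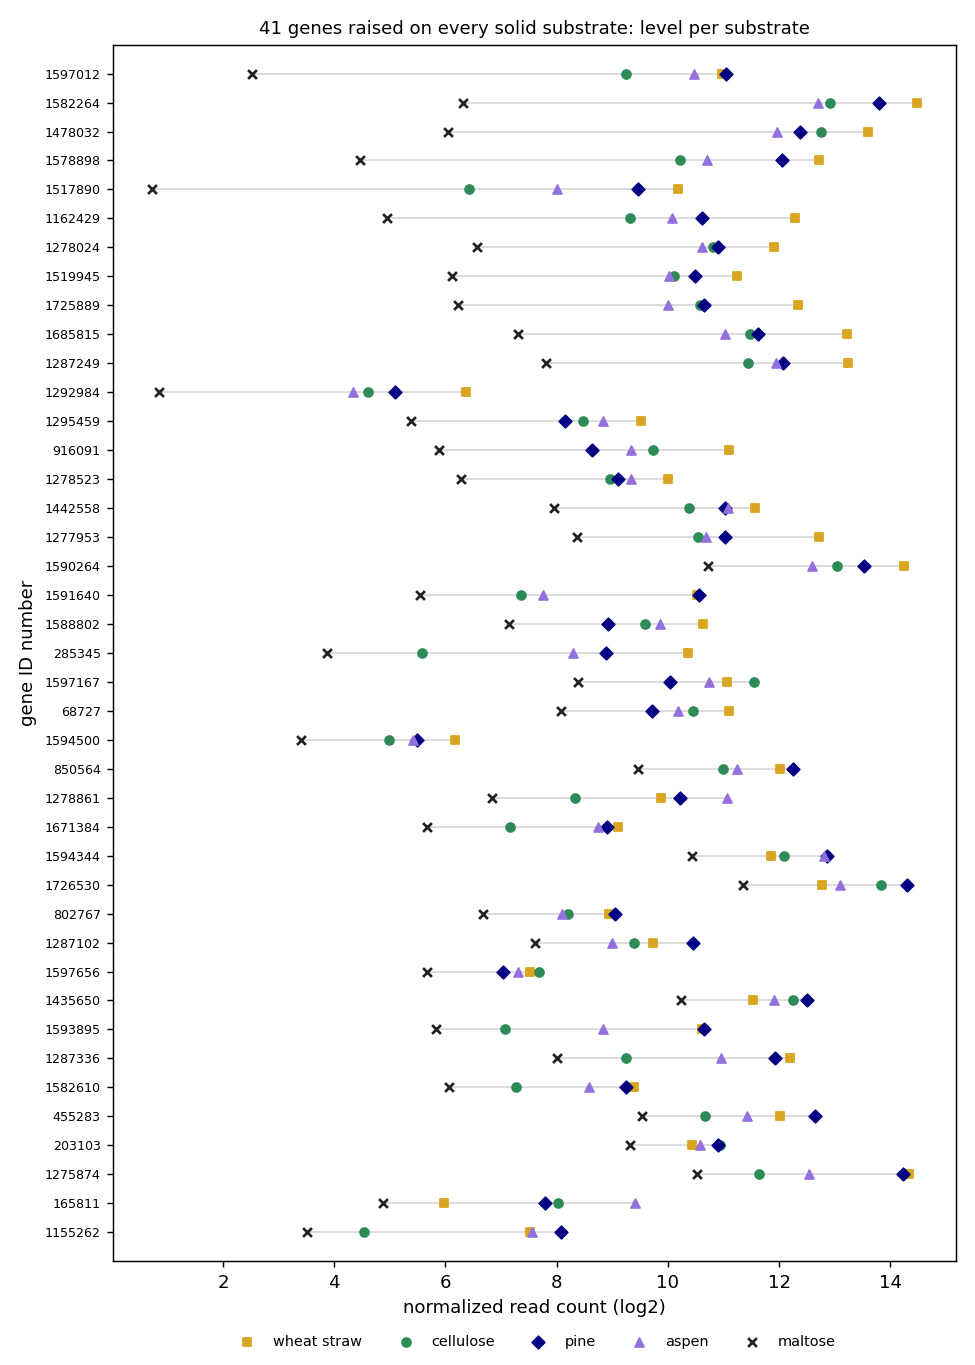
Each row of the plot is 1 of the 41 members, ordered from the largest to the smallest separation from maltose, and each marker is its normalized read count (log2, horizontal axis) on 1 substrate: wheat straw, cellulose, pine, aspen or maltose. The maltose cross stands leftmost in every row by the choice of genes, straw (yellow square) stands rightmost in 25 rows, and cellulose (green circle) is the lowest solid in 20 rows.

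At the 2-fold limit the members just inside were genes 1155262, 165811 and 1275874, with smallest log2 differences from maltose of 1.03, 1.09 and 1.11. Just outside it were genes 1539744, 1284975 and 1649125, at 0.96, 0.95 and 0.93. Gene 1539744 had log2 levels of 9.46 on wheat straw, 6.45 on cellulose, 11.20 on pine and 9.77 on aspen, against 5.49 on maltose, so it missed the limit on cellulose alone. At the limit on the lead, the members just inside were genes 916091, 1478032 and 1597167, whose leads of straw and cellulose were 0.40, 0.38 and 0.33 on the log2 scale. Just outside were genes 1579031, 986122 and 1594017, with leads of 0.53, 0.74 and 0.75. Gene 1594017 had log2 levels of 12.73 on wheat straw, 11.38 on cellulose, 10.63 on pine and 10.48 on aspen, against 7.82 on maltose. The limit on the lead left out 23 of the 64 genes that were past 2-fold on every solid (6.62% of all genes kept). All 41 members passed the filter on low values, which asked for a log2 level of at least 3.32, or a count of 10, on 2 substrates. A gene near the floor on maltose could pass it through the solids alone, and 3 members (1517890, 1292984 and 1597012) were under that level on maltose.

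The members' share of the normalized reads in the table was larger on every solid than on maltose. It was 8.82% on wheat straw, 4.51% on cellulose, 5.45% on pine and 5.67% on aspen, against 0.917% on maltose. The rule fixes the direction of these differences, so they are a description. A few members carried much of the sum: the 5 members with the most reads held 48.0% of the members' reads on straw, 52.5% on cellulose, 52.6% on pine and 43.1% on aspen, against 60.7% on maltose. Gene 1726530 had the most reads of all members on cellulose, pine, aspen and maltose, and gene 1582264 on straw. The log2 levels of gene 1726530 were 12.77 on wheat straw, 13.83 on cellulose, 14.30 on pine and 13.09 on aspen, against 11.35 on maltose. Its order over the solids ran against most of the group, with straw the lowest of the 4. Gene 1590264 had log2 levels of 14.24 on wheat straw, 13.05 on cellulose, 13.53 on pine and 12.59 on aspen, against 10.73 on maltose. Gene 1275874 had 14.33 on wheat straw, 11.64 on cellulose, 14.22 on pine and 12.55 on aspen, against 10.53 on maltose (log2), where straw and pine lay close together and cellulose, the nearest to maltose, was 2.17-fold above it. Genes 1726530, 1590264 and 1275874 were also the 3 members with the highest read counts on maltose. Gene 1275874 fell under 2-fold on cellulose with centring and with quantile normalization, at log2 differences of 0.82 and 0.81, and gene 1726530 on straw with quantile normalization, at 0.88.

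Among the solids, wheat straw gave the highest level of the gene in 25 of the 41 members (61.0%), against 227 of all 967 genes (23.5%). Pine gave the highest level in 11 members (26.8%), against 36.8% of all genes, cellulose in 3 (7.32%), against 22.5%, and aspen in 2 (4.88%), against 17.2%. Cellulose gave the lowest level of the 4 in 20 members (48.8%), against 284 of all genes (29.4%), and straw in 5 members (12.2%), against 34.5% of all genes. Aspen was lowest in 10 members (24.4%) and pine in 6 (14.6%), near the 22.5% and 13.5% of all genes. The limit on the lead removed genes in which straw and cellulose both stood above the woods. These counts are therefore in part set by the rule. Without that limit, straw was highest in 41 of 64 genes. Of the 23 genes that the limit removed, 16 (69.6%) were highest on straw. The 2-fold limit shapes the counts too, and these 64 genes share it. It removed every gene under maltose on a solid. At least 2-fold under maltose were 19.9% of all genes on straw, 9.41% on pine, 6.41% on aspen and 3.83% on cellulose.

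**Figure D3:**
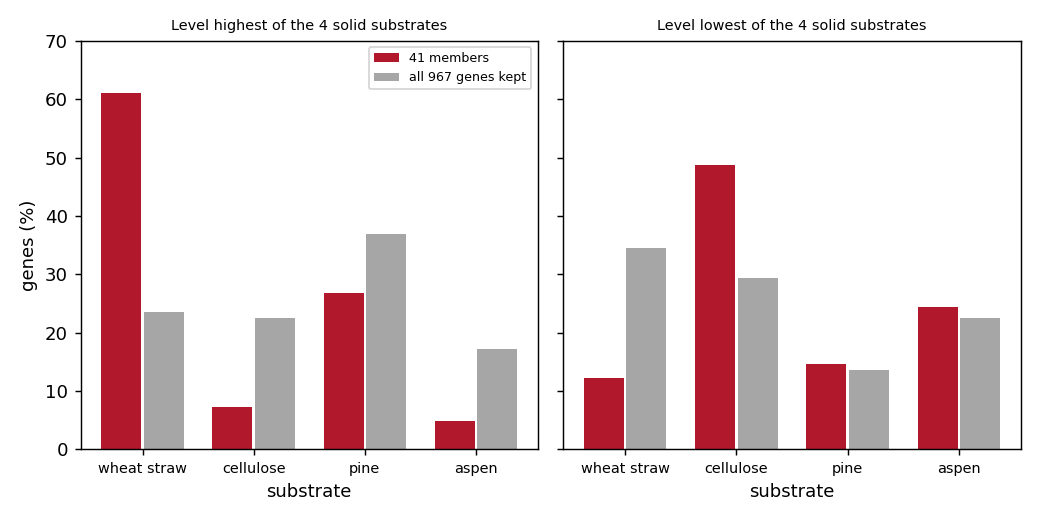
The bars give the percentage of genes whose level was highest (left panel) or lowest (right panel) on each of the 4 solid substrates, for the 41 members (red) and for all 967 genes kept (grey). Straw is highest for 61.0% of the members and 23.5% of all genes, and cellulose is lowest for 48.8% of the members and 29.4% of all genes.

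The rule treats straw and cellulose alike in form, but it is not neutral between them. It drops genes under maltose on either, and 19.9% of all genes were at least 2-fold under it on straw, against 3.83% on cellulose. Straw also spread wider upward, with 24.5% of all genes at least 2-fold over maltose, against 12.5% on cellulose. The shares of members and of all genes below therefore differ in part by the choice of genes. The rule also favours genes in which straw and cellulose lie far apart, since the lead rests on the lower of the 2. Straw was at least 2-fold above cellulose in 30 of the 41 members (73.2%), where 20.4% of all genes were, and at least 2-fold below it in 2 members (4.88%), where 18.6% of all genes were. The members' median log2 difference of straw from cellulose was 1.35, from -2.05 to 4.78, and the median of all genes was 0.04. No error accompanies either value, so this difference between the group and the table was not tested. At least 2-fold higher on straw than on cellulose were 19 of 25 members (76.0%) with centring on the median, where 18.0% of all genes were. With quantile normalization 17 of 30 members (56.7%) were, against 17.9% of all genes. With each solid shifted by its median difference from maltose, 26 of 39 members (66.7%) were, against 18.9% of all genes. Centring and this shift move straw against cellulose by the same small amount in every gene. The rule was also applied again in each scaling, so these counts are no independent support for the difference. Without the limit on the lead, 38 of 64 genes (59.4%) were higher on straw, against 20.4% of all genes.

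The widest gap was that of gene 285345, which had log2 levels of 10.36 on wheat straw, 5.58 on cellulose, 8.89 on pine and 8.29 on aspen, against 3.87 on maltose. Straw exceeded cellulose 27.5-fold there, a log2 difference of 4.78. Gene 1517890, described above, was 13.5-fold higher on straw and gene 1162429 7.80-fold higher. By the difference between straw and the mean of the other 3 solids, these were the 3 members most particular to straw, at 2.77, 2.21 and 2.28 on the log2 scale. The 2 members at least 2-fold lower on straw than on cellulose were genes 1726530 and 165811, at log2 differences of -1.06 and -2.05.

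The most frequent order over the solids, from high to low, was straw, pine, aspen and cellulose, held by 11 members. The share of all genes with each order was not computed, so the counts of orders here and below only describe the members. Of these 11 members, genes 1578898, 1517890, 1162429, 1287249, 1277953, 285345 and 1275874 are described above. Gene 1287336 had log2 levels of 12.20 on wheat straw, 9.26 on cellulose, 11.92 on pine and 10.95 on aspen, against 8.02 on maltose. Gene 1582610 had 9.40 on wheat straw, 7.28 on cellulose, 9.26 on pine and 8.59 on aspen, against 6.07 on maltose. Gene 1671384 had 9.10 on wheat straw, 7.17 on cellulose, 8.90 on pine and 8.74 on aspen, against 5.68 on maltose. In each of these 3, cellulose stood between the plant materials and maltose. Gene 1594500 had the same order at low counts, with log2 levels of 6.17 on wheat straw, 4.98 on cellulose, 5.50 on pine and 5.41 on aspen, against 3.40 on maltose. A further 7 members (1582264, 1278024, 1519945, 1725889, 1685815, 1292984 and 1590264) had straw first, pine second and aspen under cellulose, so that 18 members had straw first and pine second.

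Straw and pine were the 2 highest solids in a further 7 members, with pine first. By the difference from the mean of the other 3 solids, the members most particular to pine were genes 1591640, 1593895 and 1155262, at 2.01, 1.82 and 1.54 on the log2 scale. Gene 1591640 had log2 levels of 10.52 on wheat straw, 7.37 on cellulose, 10.56 on pine and 7.76 on aspen, against 5.54 on maltose, and gene 1593895 had 10.61 on wheat straw, 7.07 on cellulose, 10.66 on pine and 8.84 on aspen, against 5.83 on maltose. In both, straw and pine lay within 0.1 of each other, and pine was 6.96-fold and 3.53-fold above aspen. Gene 455283 had 12.01 on wheat straw, 10.67 on cellulose, 12.65 on pine and 11.43 on aspen, against 9.54 on maltose (log2). Gene 850564 had 12.02 on wheat straw, 11.00 on cellulose, 12.26 on pine and 11.24 on aspen, against 9.46 on maltose (log2). In these 2 the order was the same, with pine first, straw second, then aspen and cellulose. Gene 1287102 had 9.73 on wheat straw, 9.40 on cellulose, 10.45 on pine and 9.00 on aspen, against 7.62 on maltose (log2), and gene 802767 had 8.95 on wheat straw, 8.21 on cellulose, 9.04 on pine and 8.09 on aspen, against 6.68 on maltose. In these 2 genes aspen was the lowest solid.

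A few members were highest on aspen or on cellulose. Aspen stood apart most in gene 165811, with log2 levels of 5.97 on wheat straw, 8.02 on cellulose, 7.80 on pine and 9.41 on aspen, against 4.88 on maltose. Straw lay 10.9-fold under aspen in this gene, which only just met the 2-fold limit on straw. Gene 1278861 had 9.88 on wheat straw, 8.33 on cellulose, 10.22 on pine and 11.07 on aspen, against 6.83 on maltose (log2), with aspen first and cellulose last. Gene 1155262 came next by the difference from the mean of the other 3 solids, although pine was its highest solid: its log2 levels were 7.52 on wheat straw, 4.54 on cellulose, 8.08 on pine and 7.55 on aspen, against 3.51 on maltose. Cellulose was the solid nearest to maltose in 1155262, and the plant materials lay at least 7.90-fold above cellulose.

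The members most particular to cellulose were genes 1597167, 1726530 and 1597656, but the differences from the mean of the other 3 solids were small, at 0.94, 0.44 and 0.39 on the log2 scale. In gene 1726530 the highest solid was pine, at 14.30 against 13.83 on cellulose (log2). Cellulose was the highest solid in genes 1597167, 1597656 and 203103. Gene 1597167 had log2 levels of 11.07 on wheat straw, 11.56 on cellulose, 10.04 on pine and 10.74 on aspen, against 8.38 on maltose. Gene 1597656 had 7.53 on wheat straw, 7.68 on cellulose, 7.03 on pine and 7.31 on aspen, against 5.66 on maltose. Gene 1597656 was also among the most even ones, which were genes 203103, 1597656, 802767 and 1435650, with ranges over the 4 solids of 0.50, 0.65, 0.95 and 0.97 (log2).

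Gene 203103 had log2 levels of 10.44 on wheat straw, 10.93 on cellulose, 10.91 on pine and 10.57 on aspen, against 9.32 on maltose, which put all solids within 1.41-fold of each other and at least 2.17-fold above maltose. Its smallest log2 difference from maltose came to 0.72 with centring and 0.52 with quantile normalization, both under 2-fold. Genes 1597656, 802767 and 1435650 also fell under 2-fold with centring, at smallest log2 differences of 0.71, 0.89 and 0.90, and genes 1597656, 1435650 and 1594344 with quantile normalization, at 0.96, 0.46 and 0.51. Gene 1435650 had 11.53 on wheat straw, 12.24 on cellulose, 12.50 on pine and 11.90 on aspen, against 10.24 on maltose (log2), with straw the lowest solid. Gene 1594344 likewise had its lowest solid level on straw, at 11.86 on wheat straw, 12.08 on cellulose, 12.87 on pine and 12.81 on aspen, against 10.44 on maltose (log2). Genes 1435650 and 1594344 stood at a log2 level above 10 on maltose and at most 5.39-fold above it on any solid. The range over the 4 solids stayed under 2-fold in 4 members. It reached 2-fold in 37 of the 41 members (90.2%) and 4-fold in 17 (41.5%), where 66.7% and 26.5% of all genes reached these sizes. The median log2 range was 1.80 in the members and 1.31 over all genes.

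Another 2 members were highest on straw. Gene 1588802 had log2 levels of 10.63 on wheat straw, 9.58 on cellulose, 8.93 on pine and 9.86 on aspen, against 7.15 on maltose. Gene 68727 had 11.11 on wheat straw, 10.45 on cellulose, 9.72 on pine and 10.17 on aspen, against 8.07 on maltose. In both, pine was the lowest solid and cellulose lay within 0.5 of aspen.

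Between the woods, the share of members higher on pine lay close to that of all genes, and the share lower on pine was smaller. Pine was at least 2-fold above aspen in 10 of the 41 members (24.4%), near the 20.1% of all genes. It was at least 2-fold below aspen in 1 member (2.44%), where 7.03% of all genes were. The median log2 difference of pine from aspen was 0.54 in the members and 0.23 over all genes. This balance followed the scaling. With each solid shifted by its median difference from maltose, 6 of 39 members (15.4%) were higher on pine, near the 12.0% of all genes. In that scaling 6 members were lower on pine, for which the share of all genes was not computed. The differences of straw from cellulose and of pine from aspen use no value in common. Across the 41 members they had a Pearson's r of 0.49, and across all 967 genes, which include the members, 0.39. These are descriptions across genes of the same libraries. Both differences were positive in 27 members (65.9%), where 37.7% of all genes had this. Only that of straw from cellulose was positive in 7 members, only that of pine from aspen in 4, and both were negative in 3. Over all 967 genes these counts were 132, 228 and 242. Both were at least 2-fold in 8 members (19.5%), where 8.17% of all genes had this. These joint shares rise with the many members higher on straw than on cellulose, so no link between the 2 differences is read from them.

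**Figure D4:**
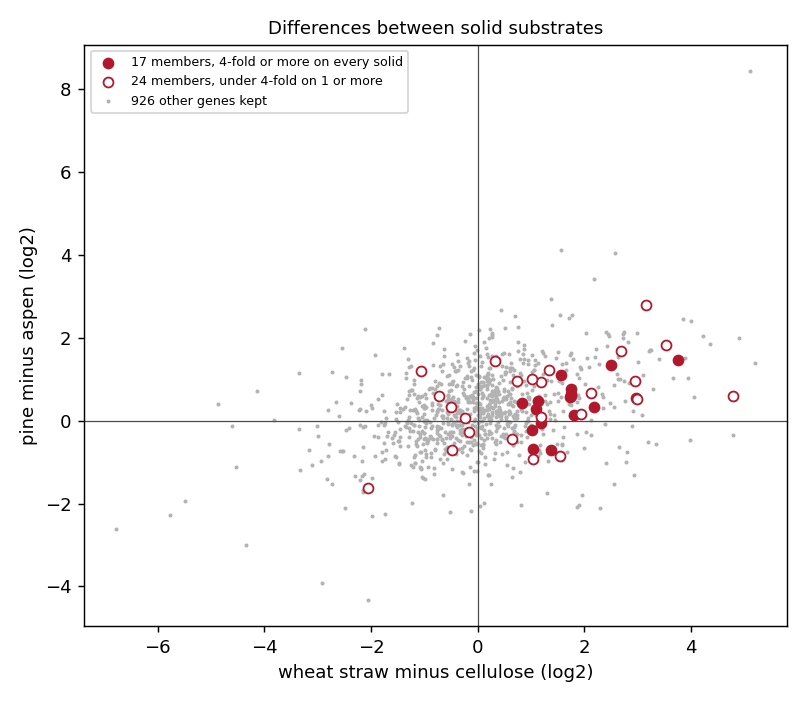
Each point of the plot is a gene, with the log2 difference of wheat straw from cellulose on the horizontal axis and of pine from aspen on the vertical axis. Filled red points are the 17 members at least 4-fold above maltose on every solid, open red points the other 24 members, and grey points the 926 other genes kept. All 17 filled points lie to the right of 0, while the open points spread to both sides.

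Straw was the highest solid more often among members with a large separation from maltose than among those with a small one. Of the 17 members at least 4-fold above maltose on every solid, 16 had their highest level on straw and 1 on pine. Of the other 24 members, 9 were highest on straw, 10 on pine, 3 on cellulose and 2 on aspen. Straw was at least 2-fold above cellulose in 16 of the 17 members and in 14 of the 24. The median log2 difference of straw from pine was 1.17 in the 17 members and -0.04 in the 24. The median log2 level on maltose was 6.13 in the 17 members, from 0.72 to 8.37, and 7.38 in the 24, from 3.40 to 11.35. The 2 groups were formed from the same values and have no replicates, so the contrast between them was not tested.

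The members were set beside 2 similar groups of genes. In the 23 genes that were past 2-fold on every solid but left out for their lead, straw was at least 2-fold above cellulose in 8 (34.8%), with a median log2 difference of 0.59, where the members had 30 of 41 (73.2%) and 1.35. The lead uses the lower of straw and cellulose, so a gene with cellulose far under straw becomes a member by the rule itself, and nothing is read from this contrast. Pine was the lowest solid in 6 of the 41 members and in 17 of these 23 genes, whose rule places the woods low. A set of 55 genes was at least 2-fold higher on each of straw, pine and aspen than on both cellulose and maltose. It shared 9 genes with the members, which is 22.0% of the members and 16.4% of that set. Straw and pine were nearly level in these 55 genes, with a median log2 difference of 0.01, where the members had 0.66 and all genes had -0.34. Straw was the highest solid in 29 of these 55 genes (52.7%) and in 16 of the 23 (69.6%). The members had 25 of 41 (61.0%), so a highest level on straw is not particular to them. Straw was at least 2-fold above pine in 14 of the 41 members (34.1%), where 8.69% of all genes were, and in 4 of the 55 genes (7.27%). Straw was also at least 2-fold above pine in all 23 genes left out for their lead, whose rule places the woods low, so this is not particular to the members. It was at least 2-fold below pine in 3 members (7.32%), where 22.0% of all genes were, and these 3 were genes 1726530, 1594344 and 165811. No test of these differences between groups could be made on single values.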

How the data were processed

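RNA was measured in 14 libraries of Irpex lacteus mycelium grown on 5 substrates, grouped by the substrate in the labels. The authors deposited log2 values, described per the file headers as normalized log2 read counts, as a single number per gene for each substrate. TopHat2, HTSeq and DESeq (version 1.5) appear in the submitters' processing notes without a stated role. The sources used here do not state the genome build, the strand setting, the size factors, any constant added before the logarithm, how libraries were combined, or how the genes of the table were picked. A substrate value may hide differences between its libraries.

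Of 1000 rows, 23 identical repeats were dropped, which left 977 genes. Genes with a log2 value of at least 3.32 in at least 2 substrates were kept (967). The member rule, differences, medians, shares of summed linear values and counts were computed with pandas 2.3.3 in Python 3.11.15. A script checked the rule on simulated data. No test was possible with 1 value per substrate. Genes were named by their separation from maltose (8), mean over the solids (4), difference of a solid from the mean of the other 3 (3 per solid), range over the solids (4), maltose level (3 lowest and 3 highest) and closeness to each threshold (3 on each side). The members outside this rule are given too. The group of genes and the lists were chosen with earlier results of these data known. Alternatives were 3 rescalings, other filters, an added constant of 8 and other limits on the lead.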

Additional observations from a re-analysis of the deposited data

How the results depend on the processing

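Relative to the 41 members, centring each substrate on its median left 25 members, with 19 of them at least 2-fold higher on straw than on cellulose and 4 at least 2-fold higher on pine than on aspen. Quantile normalization left 30 members, with 17 higher on straw than on cellulose and 4 higher on pine than on aspen. Shifting each solid by its median difference from maltose left 39 members, with 6 higher on pine than on aspen. Higher on pine than on aspen were thus 16.0%, 13.3% and 15.4% of members, near the 16.2%, 10.8% and 12.0% of all genes. Higher on straw than on cellulose were 18.0% of all genes with centring and 17.9% with quantile normalization. These rescalings added no gene to the group: 16, 11 and 2 members were lost. Centring and the median shift lowered every solid relative to maltose, since all solids had higher medians and positive median differences from maltose. Quantile normalization moves each gene by its level. With 8 added, genes 165811 and 1155262 were lost, at smallest log2 differences from maltose of 0.92 and 0.69. Without the limit on the lead the group had 64 genes, of which 33 were past 4-fold on every solid and 41 were highest on straw, since that limit only removes genes. The number past 4-fold was 14 to 17 and the number highest on straw 22 to 29 over the other alternatives. No filter and the stricter filter gave the same 41 members, and 8 added to the linear values kept 39 of them. Of the 96 differences from maltose of the 24 named members, 11 fell under 2-fold with centring and 9 with quantile normalization. With the median shift 1 did, and with 8 added 2 did. All stayed positive in each of these 4 alternatives, but only quantile normalization could have changed a sign. Each difference was at least 1 by the rule, the shifts were smaller than that, and adding 8 cannot change a sign. No paired analysis was possible because each substrate entered with a single value per gene, and leaving out single libraries was not run for the same reason. The missing spread between libraries limits every statement here, and values near the floor on maltose limit the size of the difference for 3 members.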
